A study of Rattus norvegicus with 10 samples.

Results

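Libraries of RPE-J cells taken late after addition of PNU-282987 (PNU below), at 8 h and 12 h, were set against libraries taken early, at 30 min and 1 h. RPE-J is a rat retinal pigment epithelium line from Long-Evans rats, transformed with SV40 and grown at 33°C, and PNU activates the α7 type of nicotinic acetylcholine receptor and was given at 100 nM in all PNU cultures. The 4 libraries of the comparison belong to a series of 10, with 1 polyA RNA library for each condition. The others were PNU at 3 h, the vehicle DMSO at 12 h, nicotine at 1 µM as receptor activation control at 1 h and 12 h, and the α7 antagonist methyllycaconitine (MLA) at 100 nM as negative control at 1 h and 12 h. Each side holds 2 different times and no repeat of a time, so the spread within a side mixes time with technical variation. The PNU 12 h values were tied to their sample by elimination, as the one library number that the file records leave over. The only DMSO library was taken at 12 h. An effect of PNU and one of time in culture therefore cannot be told apart within the 4 libraries.

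The deposited tables leave out genes of low level, with lowest mean levels from 8.32 to 10.5 per table, so a gene with no listed level may still have had reads. Of the 14119 genes listed, 13573 had a listed level in all 4 libraries and 11125 had a mean level of at least 50, and these 11125 genes were tested. A level is the number of reads of a gene divided by a size factor for its library, set on 1 scale over the 4 libraries; it is not divided by gene length, so levels are compared between libraries and not between genes. Levels are given below in the order 30 min and 1 h for the early side and 8 h and 12 h for the late side. Reads in listed genes numbered 22280521 and 25523823 early and 15220638 and 29545212 late, so values of the 8 h library, the shallowest, carry the largest counting error. The late pair was also further apart than the early pair: the median absolute log2 difference of a gene was 0.164 between 8 h and 12 h and 0.0804 between 30 min and 1 h. Of 19 markers of retinal pigment epithelium, 10 had a listed level and 8 reached a mean of 50, led by Best1 and Krt8, and the other 9, among them Rpe65, had no listed level. None of the nicotinic receptor subunits other than Chrnb1 reached a mean level of 50, and Chrna7, which encodes the subunit that PNU acts on, had no listed level.

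Animal cells keep their cholesterol level through the SREBP transcription factors. When membranes of the endoplasmic reticulum are poor in sterol, the escort protein SCAP carries SREBP to the Golgi apparatus, where it is cut and released to switch on genes for sterol synthesis, sterol uptake and unsaturated fatty acids. When sterol is plentiful, INSIG proteins hold SCAP back, and transcription of these genes falls. Retinal pigment epithelium takes up lipoproteins from the choroid and lipid from the shed tips of photoreceptors, and passes cholesterol on in both directions.

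Transcripts of cholesterol synthesis and its control were lower at 8 h and 12 h than at 30 min and 1 h. By limma's moderated test, with Benjamini-Hochberg adjustment over the 11125 genes and a threshold of 0.05, 22 genes fell (0.198% of those tested) and 2 rose (0.018%). Of the 22 genes that fell, 20 belonged to 4 lists for the mevalonate pathway, sterol synthesis, SREBP control and fatty acid synthesis, which had 52 members tested. The other 2 were Gas1, which encodes a membrane protein of growth arrest that also binds hedgehog ligands, and Bhlhe40, a circadian repressor. The genes that rose were Acta2, which encodes smooth muscle actin, and an entry known only by the clone name AABR07063425.1. In bulk RNA, fewer cells expressing a gene and less of its RNA per cell cannot be told apart.

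Before adjustment 786 genes had p under 0.05, and the exact permutation test of 2 libraries against 2 cannot give a two-sided p below 0.333, so the calls rest on the spread that limma shares across genes. Without limma's dependence of that spread on the level, 0 genes were called, with a lowest adjusted p of 0.0802 and 852 genes at an unadjusted p under 0.05. Of the 24 calls, 15 held under each of the other 10 settings tried. Without the 30 min library 16 of the 24 were still called and without the 1 h library 16, whereas without the 8 h library 962 genes were called lower and 565 higher, and without the 12 h library 776 and 645. In the last pair of fits the spread came from the 2 early libraries alone, and all 24 calls were among those made.

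**Figure D1:**
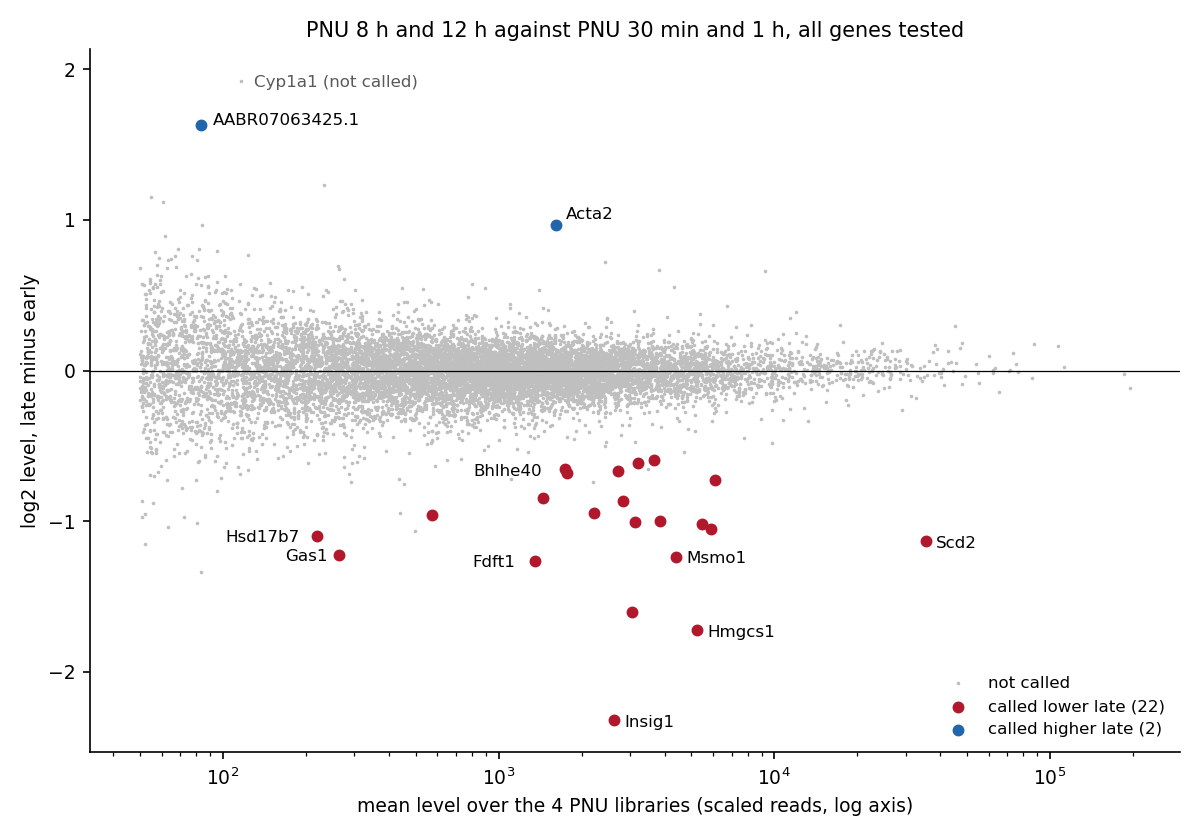
Log2 difference of the level, late (8 h, 12 h) minus early (30 min, 1 h), of each of 11125 genes against its mean level over the 4 PNU libraries (log axis). Red points are the 22 genes called lower and blue points the 2 called higher by limma at an adjusted p under 0.05; the red points lie between -2.32 for Insig1 and -0.59 for Srebf2, and Cyp1a1, which has the highest difference, was not called.

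Counted by size alone, 39 genes had a late mean at least 1.5-fold above the early one and both late libraries above both early ones (0.351% of the genes tested), and 64 met the same rule downward (0.575%). Without the size rule, the sides did not overlap for 2040 genes that were higher (18.3%) and 2275 that were lower (20.4%). At least 2-fold with sides apart were 5 higher and 17 lower genes. Non-overlap on its own was thus common, and counts of list members with sides apart are to be read beside these shares.

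Promoter sequences are shown for 5 of the 22 genes because most of this set shares one regulator in textbooks. The shared fall of the 22 genes late in PNU was fixed by the way the set was chosen. RefSeq's 300-base windows on build GRCr8, from 250 bases before to 50 after the transcript start, were matched by symbol for 16 of the 22. The 5 shown were picked and skip other genes with falls between those of Insig1 and Idi1. They include Insig1, with the largest fall, and Cyp51, whose window holds no match to the box marked here. Capitals mark each CCAAT or its reverse ATTGG, the box bound by NF-Y, which is known to work beside SREBP. Insig1 lies at chr4:8057720-8058019, minus strand, Hmgcs1 at chr2:53382054-53382353, plus strand, Msmo1 at chr16:29746863-29747162, plus strand, Idi1 at chr17:66547475-66547774, minus strand and Cyp51 at chr4:30991443-30991742, plus strand, each printed along the strand of its gene.
Insig1: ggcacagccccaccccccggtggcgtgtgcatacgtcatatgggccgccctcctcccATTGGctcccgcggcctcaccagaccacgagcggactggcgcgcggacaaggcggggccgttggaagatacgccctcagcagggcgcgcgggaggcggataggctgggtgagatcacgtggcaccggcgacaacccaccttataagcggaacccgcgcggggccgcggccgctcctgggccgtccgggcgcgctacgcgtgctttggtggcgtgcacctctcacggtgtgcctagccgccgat
Hmgcs1: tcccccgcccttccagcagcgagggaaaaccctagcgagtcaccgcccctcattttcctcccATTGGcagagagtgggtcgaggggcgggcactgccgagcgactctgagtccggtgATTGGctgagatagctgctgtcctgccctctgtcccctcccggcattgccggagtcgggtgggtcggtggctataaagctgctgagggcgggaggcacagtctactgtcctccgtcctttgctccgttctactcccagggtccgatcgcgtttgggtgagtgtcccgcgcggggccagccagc
Msmo1: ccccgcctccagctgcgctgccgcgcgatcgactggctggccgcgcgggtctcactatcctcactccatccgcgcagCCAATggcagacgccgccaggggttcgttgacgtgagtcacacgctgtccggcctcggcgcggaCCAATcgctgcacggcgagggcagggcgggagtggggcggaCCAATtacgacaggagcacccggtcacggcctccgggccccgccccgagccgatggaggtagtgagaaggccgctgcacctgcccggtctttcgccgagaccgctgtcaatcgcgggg
Idi1: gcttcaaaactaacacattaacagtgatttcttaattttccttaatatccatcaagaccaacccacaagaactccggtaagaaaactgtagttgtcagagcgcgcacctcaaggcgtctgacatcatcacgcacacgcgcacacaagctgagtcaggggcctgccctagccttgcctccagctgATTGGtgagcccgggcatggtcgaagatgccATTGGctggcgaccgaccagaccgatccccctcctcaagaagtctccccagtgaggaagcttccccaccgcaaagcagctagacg
Cyp51: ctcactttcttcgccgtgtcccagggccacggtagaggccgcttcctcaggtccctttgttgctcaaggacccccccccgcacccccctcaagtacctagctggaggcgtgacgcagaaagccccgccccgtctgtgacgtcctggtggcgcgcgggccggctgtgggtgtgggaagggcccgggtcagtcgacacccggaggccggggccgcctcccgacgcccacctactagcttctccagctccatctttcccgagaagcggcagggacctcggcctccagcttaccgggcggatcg

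CCAAT, read on both strands, occurred in a window of 13 of the 16 genes and in 37.5% of all 33469 RefSeq windows of that length. It occurred at 2 or more places in 8 of the 16 and in 11.2% of all windows. The genes without it were Cyp51, Bhlhe40 and Acat2. GGGCGG, the core of Sp1 boxes, was present for 13 of the 16 and in 33.1% of all windows, and CACGTG, the E-box, for 3 of 16 and in 6.42%. TCACNCCAC, a known form of the sterol element, was found for 0 of the 16 and in 1.12% of all windows. The motifs were picked after the genes were known, and a match of letters describes the window only.

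The mevalonate pathway makes the isoprene units of cholesterol from acetyl-CoA. Genes at its entry fell, as did those from the isomerase Idi1 through Fdps to its last step. Those of the pathway's steps that phosphorylate and decarboxylate mevalonate were not called. Of its 10 members tested, 6 fell and 0 rose, and 9 were lower with sides that did not overlap, beside 20.4% of all genes. The median difference was -0.74 on the log2 scale, beside -0.0066 over all genes. Hmgcs1, which encodes the synthase that makes HMG-CoA, had levels of 8224 and 7792 early and 2067 and 2835 late. Its late levels were both less than the lower early one, and the difference of -1.72 ± 0.14 (SE, n = 2 libraries a side; limma adjusted p = 0.00909) is a 3.31-fold fall.

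Fdft1, squalene synthase, which commits the pathway to sterols, was at 1913 and 1903 early and 713 and 885 late. That is a 2.4-fold fall (limma, -1.26 ± 0.12 (SE), adjusted p = 0.00909), with nearly equal early levels.

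Fdps, which joins isoprene units to farnesyl diphosphate, was at 7816 and 8089.5 early and 3546 and 4144 late and fell 2.07-fold (limma, adjusted p = 0.00909). Idi1, the isomerase that readies the first isoprene unit, was at 3625 and 3678 early and 1941 and 2072 late and fell 1.82-fold (limma, adjusted p = 0.00909). Acat2, the thiolase at the entry of the pathway, fell least of the 6, from 3819.9 and 3963 to 2569 and 2510.0 (limma, -0.62 ± 0.07 (SE), adjusted p = 0.0339). Each of these genes kept a clear gap between the early and late pairs.

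The 4 members that were not called encode the mevalonate kinases, the decarboxylase and the enzyme of a side branch. Mvd, the decarboxylase, went from 1425 and 1335 to 919 and 1005 (limma, -0.52 ± 0.09 (SE), adjusted p = 0.225), and Mvk, the mevalonate kinase, had a difference of -0.41 (limma, adjusted p = 0.579). Pmvk, the kinase of the next step, was the one member whose sides overlapped, with 612 and 683 early and 453 and 642 late. Ggps1, which sends isoprene units to protein prenylation and not to sterols, had a difference of -0.06, the smallest of the 10.

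Sterol synthesis proper, the steps from squalene to cholesterol, was the list with the lowest median difference of all with at least 5 tested members, -0.90. Of 12 members tested 8 fell and 0 rose, and 11 were lower with sides apart, beside 20.4% of all genes. Msmo1, the methylsterol oxidase, showed the largest fall, 2.35-fold, from 6279 and 6017 to 2358 and 2894 (limma, -1.23 ± 0.11 (SE), adjusted p = 0.00909). Sqle, the squalene epoxidase, a rate-limiting enzyme, was at 4079.7 and 4268 early and 1983 and 2174 late, a 2.01-fold fall (limma, -1.01 ± 0.08 (SE), adjusted p = 0.00909). Cyp51, the demethylase of lanosterol, was at 7299 and 7396 early and 3816 and 3438 late and fell 2.03-fold (limma, -1.02 ± 0.08 (SE), adjusted p = 0.00909). In each, both late libraries lay far below both early ones.

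Hsd17b7, a ketosteroid reductase and a low-level gene of the list, fell from 291 and 310.0 to 142 and 138 (limma, -1.10 ± 0.13 (SE), adjusted p = 0.0346). Lss, which closes the sterol rings, went from 805 and 707 to 386 and 390.3 (limma, -0.96 ± 0.11 (SE), adjusted p = 0.0291). Nsdhl and Sc5d, which encode enzymes of the later steps, fell by smaller amounts, with differences of -0.85 and -0.68. Hsd17b7, Sc5d and Acat2 were no longer called with either early library left out or when libraries were scaled by total reads, and Lss without the 30 min library or with that scaling.

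Dhcr7, which makes cholesterol from 7-dehydrocholesterol, was at 687 and 658 early and 273 and 376 late. Its late libraries were 0.46 apart on the log2 scale, and it was not called (limma, -1.07 ± 0.16 (SE), adjusted p = 0.104). Tm7sf2 and Lbr, which encode the alternative reductases of the sterol nucleus, had differences of -0.37 and -0.14, and Ebp, the isomerase, -0.32, and none of the 3 was called. Lbr was the one member of the list with overlapping sides.

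The control layer above the enzymes contained the largest fall of all genes tested. Insig1, which encodes the sterol-sensing protein that holds SCAP back and is itself a target of SREBP, was at 4543 and 4144 early and 681 and 1102 late. That is a 5-fold fall (limma, -2.32 ± 0.20 (SE), adjusted p = 0.00909), and the 12 h level stood above the 8 h level by 0.69 on the log2 scale. Its late pair spread more than its early pair, but the pairs did not overlap.

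The genes for both SREBP precursors fell too. Srebf1, whose product drives mainly fatty acid genes, went from 3302 and 3377 to 2174 and 2032 (limma, -0.67 ± 0.08 (SE), adjusted p = 0.0291). Srebf2, whose product drives mainly cholesterol genes, went from 4531 and 4289 to 2922 and 2915 (limma, -0.59 ± 0.07 (SE), adjusted p = 0.0398). Both calls were lost with either early library left out and with scaling by total reads. The reads of the precursor genes do not show how much SREBP was cut.

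Other genes of the machinery were not called. Scap had a difference of 0.09, the proteases Mbtps1 and Mbtps2 that cut SREBP had -0.000929 and -0.11, and Insig2, the second INSIG gene, had -0.26, with sides that overlapped for the proteases. Among genes of efflux, which LXR receptors raise when sterol is plentiful, Abca1 had -0.34 and Abcg1 0.15, and Mylip, which encodes a ubiquitin ligase that LXR also raises, had -0.02. In all, 4 of the 18 members tested fell and 0 rose, and the list's median was -0.17.

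Within the SREBP control list, Lpin1 and Stard4 were the uncalled genes with the lowest adjusted p. Lpin1, which encodes a phosphatidate phosphatase, was at 119 and 120.5 early and 49.2 and 44.8 late, a low level with a 2.52-fold difference (limma, -1.33 ± 0.18 (SE), adjusted p = 0.0502). Stard4, a carrier of sterol between membranes, was at 536 and 547 early and 341 and 315 late (limma, -0.72 ± 0.11 (SE), adjusted p = 0.115). The called gene nearest to the threshold was Bhlhe40, with an adjusted p of 0.0474 by limma, and the genes nearest outside it were Acsl3 and Lpin1, both at 0.0502.

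Among fatty acid genes, 2 desaturases fell. Scd2, a stearoyl-CoA desaturase and one of the most read genes of these cells, was at 51417 and 45846 early and 23073 and 21215 late, a 2.19-fold fall (limma, -1.13 ± 0.10 (SE), adjusted p = 0.00909). Fads1, the desaturase that makes arachidonate and eicosapentaenoate, was at 2966 and 2861 early and 1529 and 1502 late, a 1.92-fold fall (limma, -0.94 ± 0.08 (SE), adjusted p = 0.00909). Fads2, the desaturase of the preceding step, went from 2779 and 2712 to 1807 and 1489 without passing (limma, -0.74 ± 0.10 (SE), adjusted p = 0.0732). The genes of chain assembly had smaller differences, -0.33 for Fasn, -0.38 for Acaca and -0.26 for Acly, with none called. Of 12 members tested 2 fell and 0 rose, and the median was -0.34. With sides apart 11 were lower, beside 20.4% of all genes.

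The levels at 3 h, which the comparison leaves out, showed different timing within the set. For 17 of the 22 genes the 3 h level lay between the early and late sides, and for 5 it was at or above the lower early level. Expressed as the share of the late minus early log2 difference already present at 3 h, the median was 22.9%, from -36.8% for Srebf2 to 64.4% for Gas1. It was 41.3% for Hmgcs1 and 41.4% for Msmo1, but 1.65% for Sqle, 1.35% for Scd2 and 1.19% for Fads1. Hmgcs1 stood at 4884 at 3 h, clearly under both early libraries, whereas Sqle stood at 4125, between them. Srebf2 was higher at 3 h, with 5131, than at any other PNU time. There is 1 library at 3 h, so the order of these genes in time has no replicate check.

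From 8 h to 12 h the 22 genes did not move one way. The 12 h level was above the 8 h level for 12 genes and below it for 10. The largest rise was that of Insig1, 0.69 on the log2 scale, and Hmgcs1 was also higher at 12 h. Within the early pair the steps were smaller, from -0.23 to 0.19, and 9 genes were higher at 1 h than at 30 min. The number of 8 h reads was the lowest of the libraries, and its part in these steps was not tested.

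**Figure D2:**
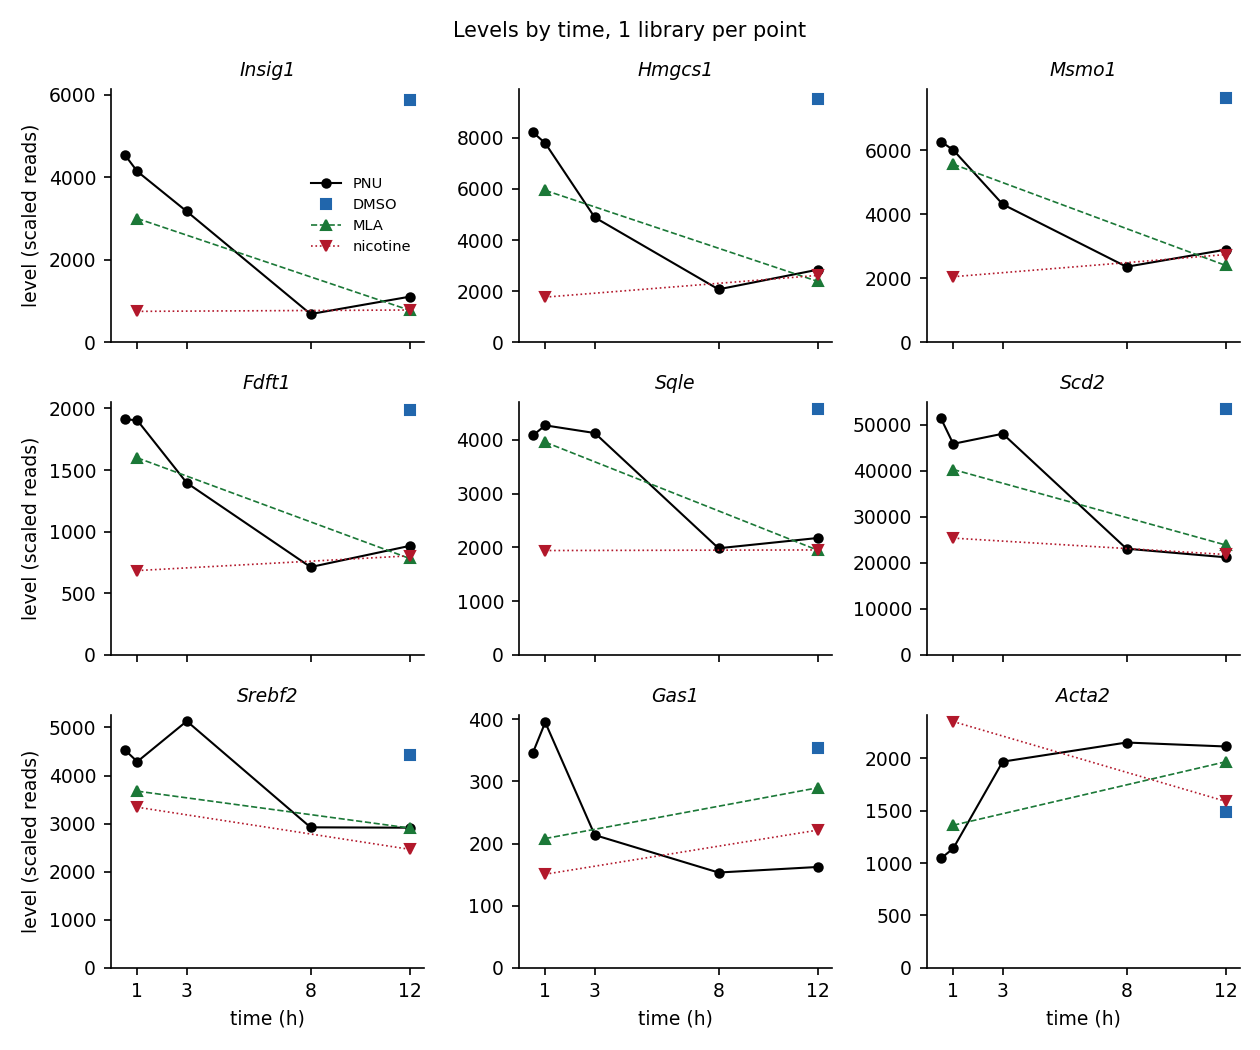
Levels (scaled reads, axis from 0) of 9 genes against time in h, 1 library per point: PNU as black circles, DMSO as a blue square, MLA as green triangles and nicotine as red inverted triangles. For the 7 sterol and lipid genes PNU falls between 3 h and 8 h, and the DMSO library at 12 h lies near or above the early PNU libraries, while Gas1 and Acta2 change by 3 h.

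The vehicle library at 12 h had levels near or above those of early PNU for the 22 genes. For all 22 genes DMSO at 12 h was above both late PNU libraries, beside 31.1% of all genes tested. The 22 genes were chosen for low late PNU levels, which favours a count above the late libraries. The share over all genes is therefore no like baseline. For 20 of 22 DMSO at 12 h was also above both early PNU libraries, beside 34.2% of all genes. Its median difference from the early mean was 0.14 on the log2 scale, with a range from -0.06 to 0.44. Insig1 had 5884 in DMSO at 12 h beside 1102 in PNU at 12 h, and Hmgcs1 had 9528 beside 2835. These are 1 library against 1, and they share the PNU 12 h library with the late side.

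MLA gave a like contrast between its 2 times, and nicotine did not. The log2 difference of MLA at 12 h from MLA at 1 h was below 0 for 21 of the 22 genes, where 52.1% of all genes tested were below 0. Its median was -0.77, beside -1.003 for PNU. For Insig1 MLA went from 2999.8 at 1 h to 774 at 12 h, and for Fdft1 from 1599 to 783. Nicotine at 12 h minus 1 h was below 0 for 9 of 22 genes, with a median of 0.02. That contrast rests on 1 library per time, and the one at 1 h differed from PNU at 1 h outside this set too. For example, Col1a1 was at 43211 in nicotine and 25389 in PNU at 1 h, and Vim at 60656 and 41164. The nicotine library at 1 h already had low levels, under both early PNU libraries for 22 of 22 genes, beside 45.3% of all genes tested. The 22 genes were chosen for early PNU levels above the late ones, which favours a count below the early libraries. The share over all genes is therefore no like baseline. With nicotine the Insig1 level was 746 at 1 h and 779 at 12 h, which is near the late PNU levels. Low levels of the set were thus seen at 12 h with the agonist PNU, with nicotine and with the antagonist MLA, and at 1 h with nicotine, and high levels with DMSO at 12 h.

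The late minus early difference in PNU was tested against the 12 h minus 1 h difference of MLA and nicotine in 1 limma fit over 8 libraries. The fit gave each compound its own level but MLA and nicotine a shared difference between times, so their unlike contrasts entered the spread. Of 11227 genes 0 passed (0% of those tested), 332 had an unadjusted p under 0.05, and the lowest adjusted p was 0.285. Among the 24 called genes 10 had an unadjusted p under 0.05. These genes were chosen for large PNU differences, which enter this test and favour a low p. The 332 of 11227 genes are therefore no like baseline for them. Against nicotine alone, with MLA left out, 1390 genes passed, 18 of the 22 lower genes among them, and against MLA alone 0 passed. The fit against nicotine alone tested 11186 genes. In both of these fits the spread came from the PNU pairs, and the single libraries of the other compound were assumed to vary like them. The 22 genes were chosen for a large PNU difference beside a small spread of these same pairs. Both enter these fits again and favour a pass, so the share over all genes is no like baseline for the 22.

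**Figure D3:**
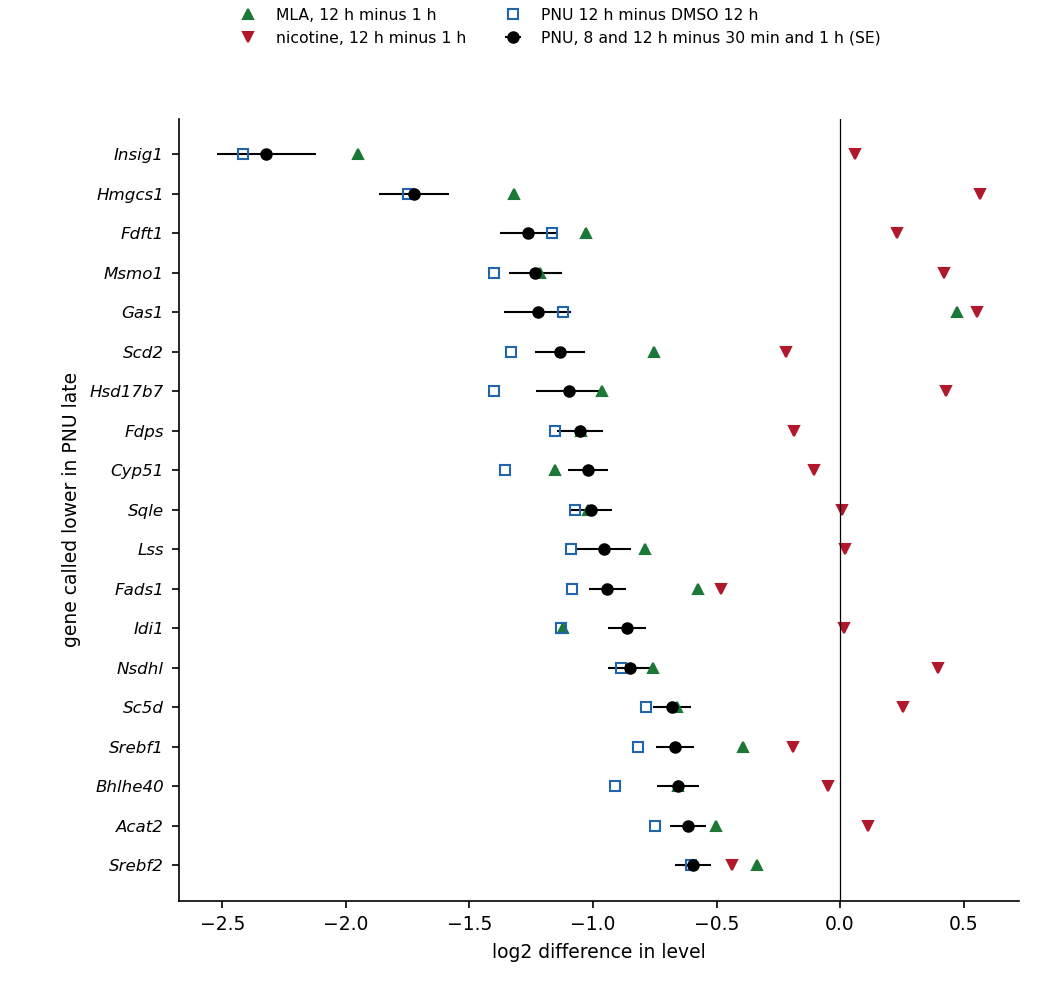
Log2 differences of 19 of the 22 genes called lower, 1 gene per row: PNU late minus early with its SE (black), MLA 12 h minus 1 h (green), nicotine 12 h minus 1 h (red) and PNU 12 h minus DMSO 12 h (open blue squares). MLA lies on the side of PNU for every gene except Gas1, and nicotine lies on both sides of 0, between -0.48 and 0.57.

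Gas1 was the gene that fell in PNU and was higher late in both other compounds. Its levels in PNU were 346 and 395 early and 153 and 162 late, and the 3 h library, at 214, was already low (limma, -1.22 ± 0.14 (SE), adjusted p = 0.0256). MLA went from 208 to 289.7 and nicotine from 151 to 222, and DMSO at 12 h stood at 354. The call was lost without the 1 h library, and the test of the difference between compounds gave -1.74 ± 0.23 (SE) with an adjusted p of 0.285 by limma.

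Acta2 was the named gene that rose. Its levels were 1043 and 1139 early and 2149.8 and 2112 late, a 1.95-fold rise (limma, 0.97 ± 0.08 (SE), adjusted p = 0.00909), and at 3 h it was already at 1967. In the other libraries it ranged from 1360.4 in MLA at 1 h to 2349.7 in nicotine at 1 h, with 1491 in DMSO at 12 h. Of the 12 contractile and actin genes tested it alone was called. Tagln, an actin-binding protein of smooth muscle, was at 10155 and 10672 early and 13492 and 13826 late (limma, 0.39 ± 0.08 (SE), adjusted p = 0.321), and Myh9, a non-muscle myosin, at 390.2 and 393 early and 524 and 554 late (limma, 0.46 ± 0.11 (SE), adjusted p = 0.422). Their early and late pairs did not overlap, and neither passed.

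AABR07063425.1, the other gene that rose, had levels of 42.1 and 38.1 early and 126 and 127 late (limma, 1.63 ± 0.18 (SE), adjusted p = 0.0256). Outside the comparison it reached 241 at 3 h and 253 in nicotine at 1 h, and it stood at 140.0 in DMSO at 12 h. It was thus low in the early PNU libraries and higher in each of the 8 others.

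Bhlhe40, a repressor of the clock that many signals induce, was at 2226 and 2027 early and 1369 and 1327 late (limma, -0.66 ± 0.09 (SE), adjusted p = 0.0474). The call was lost with either early library left out and with scaling by total reads. Of 14 clock genes tested it alone fell, and the median was -0.21. With sides apart 8 were lower and 0 higher, beside 20.4% and 18.3% of all genes. Tef, an output factor of the clock, and Per3, a period gene, had differences of -0.45 and -0.44 without passing.

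**Figure D4:**
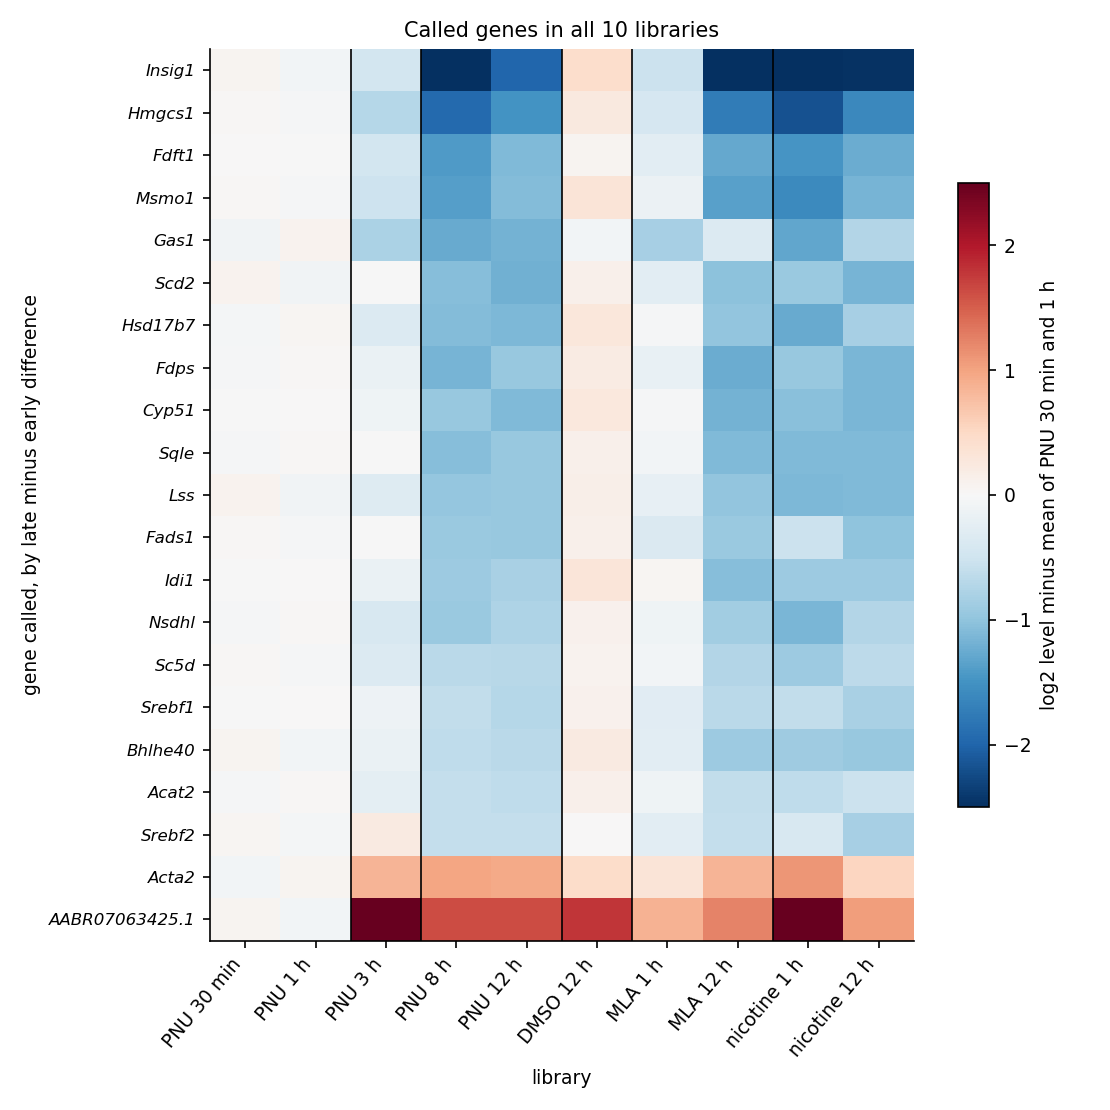
Log2 level of 21 of the 24 called genes (rows) in all 10 libraries (columns) minus the mean of PNU 30 min and 1 h; blue is lower, red is higher, and colours are clipped at 2.5 either way. The rows from Insig1 to Srebf2 are blue in PNU 8 h, PNU 12 h, MLA 12 h and both nicotine libraries and pale or red in DMSO 12 h. MLA 1 h lies between for most rows; Idi1 is slightly above the early PNU libraries there, and Gas1 is lower there than in MLA 12 h.

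The largest difference upward was not called. Cyp1a1, a detoxifying enzyme and the best known target of the aryl hydrocarbon receptor, was at 27.1 and 79.7 early and 179 and 179 late, a difference of 1.92 ± 0.43 (SE), adjusted p = 0.417 by limma. The early libraries were 1.52 apart on the log2 scale, with 1 h above 30 min. At 3 h it was at 276, in MLA and nicotine between 181 and 260.1, and in DMSO at 12 h at 20.6. Cyp1b1, a second such target, was at 2541 and 3368 early and 5301 and 4090.3 late, with 8605 at 3 h and 1861 in DMSO (limma, adjusted p = 0.453). Nqo1, a quinone reductase, was at 3479 and 3518 early and 4644 and 5695 late (limma, adjusted p = 0.279). Of 11 genes of this receptor tested 0 were called, and the median was 0.10, which went from 0.0251 without the 30 min library to 0.244 without the 1 h library.

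The other higher genes named by the rule had low levels and did not pass. Among them were Rab25, Kif26b, Rnf128, Inha, Slc16a10, Kcnk3, Bdkrb1, Stbd1, Rims3, Lrp3, Abtb2 and Fhad1, with differences from 0.73 for Fhad1 to 1.12 for Rab25 and limma adjusted p from 0.355 to 0.721. Rab25, an epithelial GTPase of recycling endosomes, was at 42.1 and 33.7 early and 95.5 and 71.9 late. Inha, the inhibin α subunit, was at 59.2 and 59.3 early and 107 and 102 late. Bdkrb1, the inducible bradykinin receptor, was at 26.1 and 61.1 early and 75.2 and 64.9 late, with its early libraries further apart than its late ones.

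Signalling genes gave differences without calls. Of 26 immediate early genes tested 0 were called, and Dusp1, a phosphatase that switches off MAP kinases, had the largest difference, with 1665 and 1120.5 early and 809 and 852 late (limma, -0.72 ± 0.17 (SE), adjusted p = 0.452). DMSO at 12 h had 2469. Fosl1, a subunit of AP-1, was at 741 and 713 early and 1095 and 1034 late (limma, 0.55 ± 0.09 (SE), adjusted p = 0.162). Hbegf, which encodes a ligand of the EGF receptor, had a difference of 0.00165 with overlapping sides, 2253 and 1709 early and 2022 and 1909 late.

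The BMP and TGF-β list had a median of -0.27 over 15 genes, with 0 called. With sides apart 2 were higher and 8 lower, beside 18.3% and 20.4% of all genes. Bmp4, a ligand, was at 391 and 349.9 early and 219.9 and 283 late (limma, -0.57 ± 0.16 (SE), adjusted p = 0.555). The median was -0.11 without the 1 h library and -0.13 without the 12 h library.

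Interferon and antigen processing genes had a median of -0.20 over 21 members, with 0 called. Of these 11 were lower and 2 higher with sides apart, beside 20.4% and 18.3% of all genes. Gbp2, an interferon-induced GTPase, was at 1159 and 1172 early and 784 and 917 late. The NF-κB list had a median of 0.16, with 0 called. Of its 15 members 9 were higher and 1 lower with sides apart, beside 18.3% and 20.4% of all genes. Relb, a subunit, was at 750.3 and 697 early and 1014 and 852 late, and Traf1, a target, at 76.2 and 111 early and 142 and 134 late. Ccl2, a chemokine that draws monocytes, was at 1288 and 987 early and 2054 and 1301 late, so that its 12 h level barely exceeded that at 30 min. The NF-κB median was 0.0636 without the 8 h library.

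Proliferation genes differed little in size. Of 41 genes of G2 and M phase 20 were lower and 3 higher with sides apart, the median was -0.07 and 0 were called. Ect2, which drives cytokinesis, had a difference of -0.30, with 5727 and 5624 early and 4735 and 4511 late. Of 30 genes of ribosome biogenesis 16 were higher and 3 lower with sides apart, with a median of 0.13 and 0 called. Mybbp1a, a nucleolar protein, had 0.30. Over all genes the sides were apart downward for 20.4% and upward for 18.3%.

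Some single genes of other lists had large differences at low levels. Itgb8, an integrin that activates TGF-β, was at 68.2 and 66.4 early and 43.4 and 26.3 late (limma, -0.97 ± 0.27 (SE), adjusted p = 0.555). Pde10a, a cyclic nucleotide phosphodiesterase, was at 99.3 and 92.1 early and 44.8 and 51.8 late (limma, -0.97 ± 0.19 (SE), adjusted p = 0.3). Slc14a1, a urea transporter, was at 189 and 211 early and 326 and 321 late, with 120.5 in DMSO at 12 h (limma, 0.69 ± 0.13 (SE), adjusted p = 0.277). Bnip3, a hypoxia gene of mitochondrial turnover, was at 332 and 372 early and 195 and 243 late (limma, -0.69 ± 0.15 (SE), adjusted p = 0.406). None of the 4 passed, and in each the sides did not overlap.

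**Figure D5:**
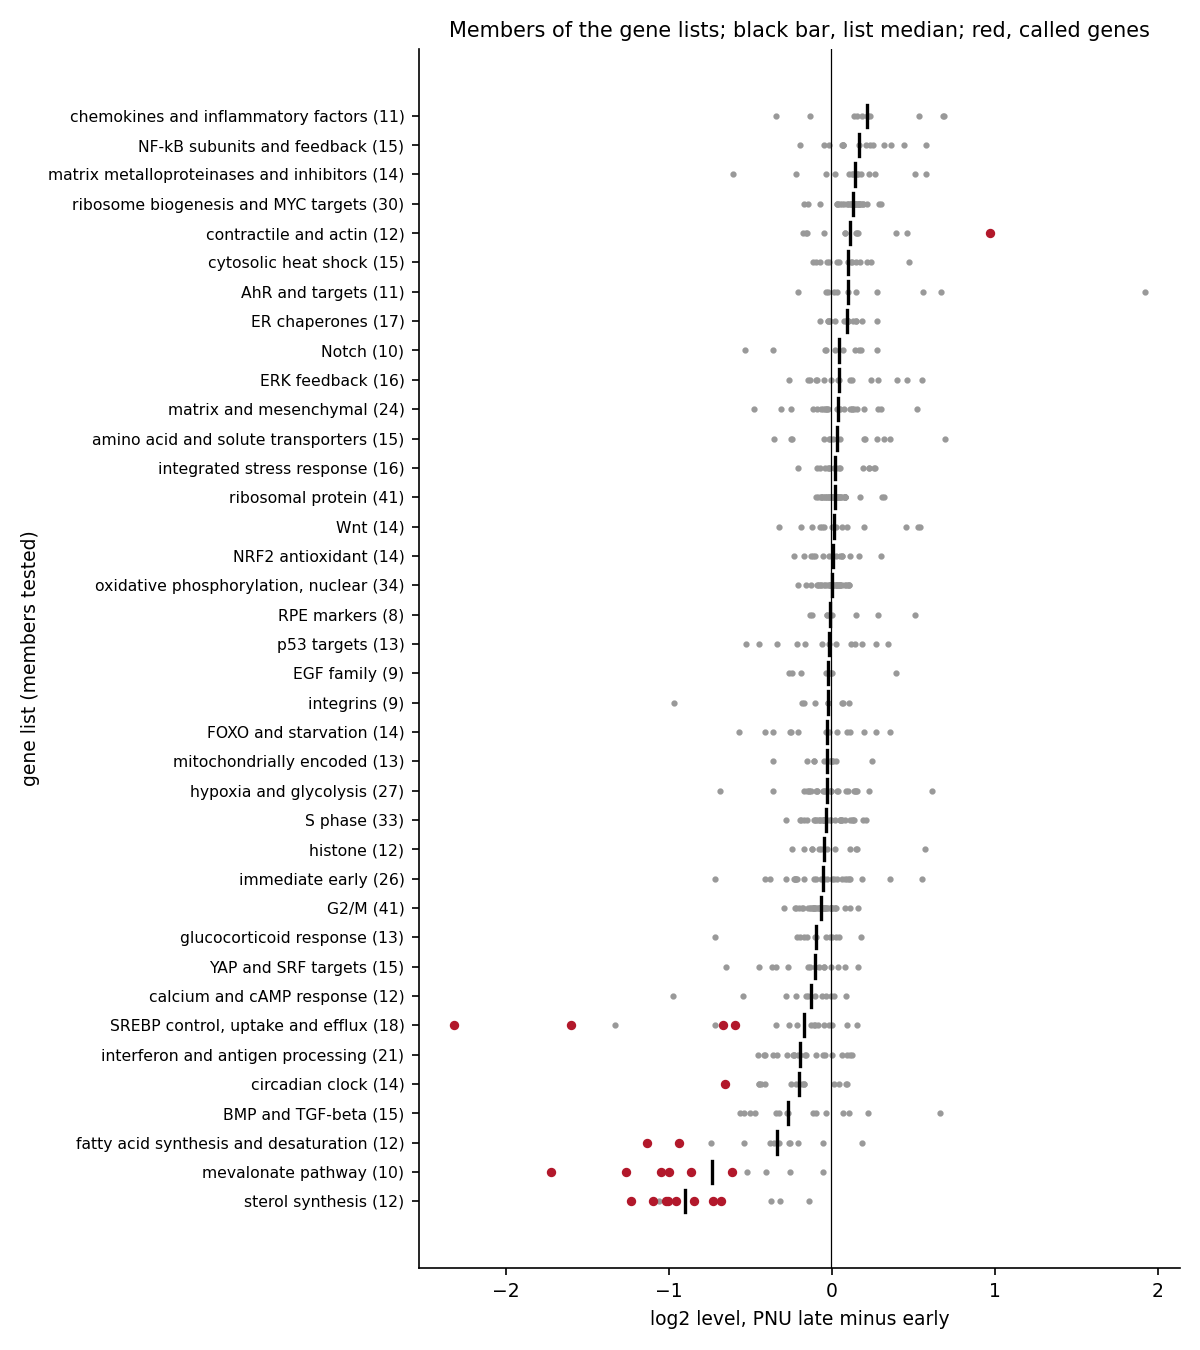
Log2 difference, late minus early, of the tested members (points) of each gene list with at least 5 of them; black bars are list medians, red points called genes and the vertical line the median of all genes. The sterol synthesis and mevalonate lists have medians of -0.90 and -0.74, and the other lists lie between -0.34 and 0.22.

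The chemokine and inflammatory factor list had the highest median of all lists with at least 5 tested members, 0.22 over 11 genes. Of these 9 were above 0 and 0 were called. With sides apart 5 were higher and 1 lower, beside 18.3% and 20.4% of all genes. Fatty acid synthesis and desaturation had -0.34, and the other lists of that size without a median given so far lay between -0.13 for calcium and cAMP response and 0.14 for matrix metalloproteinases and inhibitors. Ribosomal protein genes had 0.02 over 41 members, nuclear genes of oxidative phosphorylation 0.00149 over 34 and S phase genes -0.03 over 33, with 0 called in each. The 8 retinal pigment epithelium markers had -0.01. Markers of other cells were mostly low: 0 of 8 photoreceptor and 0 of 5 endothelial markers reached a mean level of 50, and summed levels of the photoreceptor list lay between 74.2 and 83.3 early and between 79.6 and 91.2 late. The fibroblast list, in which Col1a1 alone had a listed level, summed to 27793 and 25389 early and 30576 and 27706 late, and the immune list to 234 and 212 early and 182 and 247 late. Early and late sums did not overlap for the endothelial list, 70.2 and 71.7 early and 104.2 and 79.6 late, all from genes under a mean level of 50, and for the glial list, 41759 and 42619 early and 50608 and 52187 late, which is nearly all Vim, a filament protein that epithelial lines in culture also express. Their part in the differences above was not tested.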

How the data were processed

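RNA of RPE-J cells was sequenced from polyA libraries, 1 per condition, and 4 of the 10 libraries form the comparison. The authors gave 39 tables that each pair 2 libraries, and the values used are the deposited signal levels, reads of a gene divided by a size factor set anew in each table. Per the submitters' processing notes reads were handled with STAR 2.5.2b, Trimmomatic 0.36, Subread 1.5.2 with featureCounts, and DESeq2. No source used here states the build, the annotation or the strand setting. Genes of low level, and those with 0 reads in a library of a pair, are not listed, so read totals cover listed genes only. Columns carry library numbers: the file records give 9 of them a sample, and PNU 12 h was assigned the last one by elimination.

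From each column the value of 1 read was found as the step of its values; after division 100% of values lay within 0.01 of a whole number, and 0 of 904512 values compared differed between tables. Libraries were rescaled together by the median of ratios over 13573 genes. limma 3.58.1 in R 4.3.3 with a trend was fitted to log2(level + 1), 2 libraries against 2, for genes whose mean level reached 50. Benjamini-Hochberg adjustment was used, with a threshold of 0.05. The fit was also run on simulated counts, in which the libraries of a side varied as replicates. The sides here hold different times, so the simulation does not show the error rate of these calls. Fold changes are on the log2(level + 1) scale, which understates the change of low genes. Nothing in the labels shows separate cultures, so p-values measure the spread between these libraries. Gene names shared by more than 1 gene were left out of lists, and near-identical copies such as ribosomal protein genes may share reads.

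The members, the 45 gene lists and the alternatives were chosen with earlier results of these data known. Genes are named by a rule: the 15 highest and 15 lowest called genes with sides apart, filled with uncalled ones, up to 4 members per list and Hbegf. Other called genes and the members of the sterol, fatty acid and aryl hydrocarbon receptor lists are named beyond it, after their values were seen. Some genes that the rule names are not reported here.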

Additional observations from a re-analysis of the deposited data

Results flagged for a closer look

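Gas1 and 25 uncalled genes, of the 218 selected by the naming rule or as pathway members, had early and late PNU libraries that did not overlap and moved the other way in both MLA and nicotine, each of these with 1 library per time. Over all genes tested the same held for 728 (6.54%). The naming rule favours genes with sides apart or large differences, so this share is no like baseline for the 218. Choosing genes that move the other way in both compounds also sets the signs of the values below. The values are log2 differences between the late minus early difference in PNU and the 12 h minus 1 h difference shared by MLA and nicotine, from 1 limma fit over 8 libraries. Gas1 had -1.74, with an adjusted p of 0.285. Negative values for genes lower late in PNU were Itgb8 -1.85, Adamts1 -1.01, Abca1 -0.81, Irs1 -0.80, Btc -0.72, Per3 -0.72, Gbp2 -0.66, Cxcl10 -0.48, Ahr -0.44 and Filip1l -0.31. Positive values for genes higher late in PNU were Kcnk3 1.38, Bdkrb1 1.22, Rnf128 1.17, Cyp1b1 1.00, Stbd1 0.95, Slc16a10 0.86, Hsp90aa1 0.68, Hist1h2ac 0.67, Herpud1 0.62, Myh9 0.56, Sesn2 0.55, Cdh2 0.52, Trib3 0.51, Mt-nd6 0.44 and Hspa5 0.29. All 25 had an adjusted p of 0.887, and none of the 26 passed the test of the difference. Some directions rest on very small differences, such as -0.0072 for Slc16a10 in MLA.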

How the results depend on the processing

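The 22 falls and 2 rises became 24 and 2 with a pseudocount of 8, 25 and 2 with a mean level of at least 10 or with no filter, and 22 and 2 with TMM scaling or with all 5 PNU libraries in the fit. Scaling by total reads gave 14 falls, all among the 22, and 2 rises. Without the trend of limma there were 0 falls and 0 rises, with 852 genes at an unadjusted p under 0.05. Leaving out 1 library gave 16 to 962 falls and 4 to 645 rises; the lone library of a side was then assumed to vary like the other pair. Genes at least 1.5-fold apart numbered 39 higher and 64 lower, and 225 and 161 with a mean level of at least 10, 252 and 177 with no filter, where low genes enter; leaving out 1 library, where fewer libraries must be apart, gave 67 to 102 higher and 73 to 154 lower. The test between compounds gave 0 genes, 1390 with MLA left out, for which the cause was not tested, and 0 with nicotine left out or a pseudocount of 8. The difference of Tiparp, uncalled at -0.04, ran from -0.39 to 0.31 when 1 library was left out, and was called at both ends, without the 8 h and without the 12 h library. The planned count models were not run. Whole-number reads were recovered for listed genes, but the tables leave out low genes, so these reads were not taken as full counts. No paired analysis was possible because the replicate numbers stand for different times.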
